A study of Mus musculus with 4 samples.

Results

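Long noncoding RNAs of the nucleus and of nervous tissue were followed in migrating enteric neural crest cells of the mouse embryo. The group has 6 named genes of the 27178 in the table used here: A230070E04Rik, Malat1, Neat1, Miat, Snhg11 and Rmst. They were taken by symbol, with 1 row for each Entrez identifier, and all 6 have a row. A230070E04Rik was selected on its CPM in these 4 libraries, low at the wavefront and high in trailing cells, and the group was drawn up around it, so its values are given as a description without a test. The other 5 entered by name. Reads were found for 4 members, all 4 passed the filters on low values, and Neat1 and Rmst were listed at 0 in every library. The filter of the count test asks for a level in 2 libraries. A230070E04Rik, Miat and Snhg11 passed it through the trailing libraries, where they are high.

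The cells were sorted from the gut of Wnt1-tdT embryos at 11.5 dpc (days post coitum), in which descendants of the neural crest carry a red fluorescent protein (tdT), since the Wnt1 element is active in the early crest. Of the 4 libraries, 2 came from the wavefront, the leading edge of the cells that colonise the gut, and 2 from trailing cells 1 to 1.5 mm behind it. Genotype, stage, sort and dissociation with collagenase and dispase were the same for both locations. The labels do not say how many embryos were pooled or whether replicates came from separate litters, and a p-value here speaks only for the spread among these 4 libraries.

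Long noncoding RNAs are transcripts that do not encode a protein, and several of them stay in the nucleus and bind proteins there. Malat1 is one of the most abundant and gathers in nuclear speckles, the compartments that store splicing factors. Neat1 is the scaffold of paraspeckles, nuclear bodies that hold proteins such as Nono and Sfpq. Miat, also called Gomafu, is enriched in neurons and binds splicing factors including Sf1 and Qk. Rmst is best known from neural progenitors, in which it binds Sox2 and Hnrnpa2b1. Snhg11 is a small nucleolar RNA host gene, with small nucleolar RNAs annotated inside its span, and no function of A230070E04Rik is given here.

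The sequences below show what is distinctive in the RNAs whose reads are compared. The 3′ end of mature Malat1 has no poly(A) tail. The enzyme RNase P cuts the transcript and the released downstream piece becomes a small tRNA-like RNA, while the end left on Malat1 folds into a triple helix of U-rich runs and an A-rich tail. The long form of Neat1 ends in the same manner. On GRCm38, the Malat1 end lies at chr19:5795982-5796091, the tRNA-like RNA at chr19:5795924-5795981 and the Neat1 end at chr19:5824708-5824817, all on the minus strand. They are printed 5′ to 3′ with T for U from GENCODE M21 transcripts, and the span of the tRNA-like RNA is that of the RefSeq annotation. Capitals mark TTTCTTTT, TTTGCTTTT and AAAGCAAAA, letters picked after reading both windows.
Malat1 3′ end: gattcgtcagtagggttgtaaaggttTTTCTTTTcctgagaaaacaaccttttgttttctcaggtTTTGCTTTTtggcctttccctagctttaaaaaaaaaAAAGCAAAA
tRNA-like RNA cut from Malat1: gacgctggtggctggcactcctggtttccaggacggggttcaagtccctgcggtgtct
Neat1 3′ end: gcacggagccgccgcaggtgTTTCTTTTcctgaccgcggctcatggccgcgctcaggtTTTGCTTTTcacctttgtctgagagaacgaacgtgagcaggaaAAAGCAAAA
Both 110-base windows hold each motif 1 time, on the strand of the transcript. Among the last 110 bases of 138029 GENCODE transcripts, 1.30% hold TTTCTTTT, 0.269% hold TTTGCTTTT and 0.305% hold AAAGCAAAA, and 1 window, that of Neat1, holds all 3. The annotated Malat1 transcripts run on past the RNase P cut, so their last bases are not the Malat1 window printed above. The genes themselves are neighbours: Malat1 spans chr19:5795690-5802672 and Neat1 chr19:5824708-5845478, with 22035 bases between them.

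Miat carries repeats of the branch point sequence of introns (UACUAAC in yeast), which Sf1 binds. The motif ACTAAC occurs 11 times in the 8758 bases of transcript Miat-201. Of 10212 GENCODE transcripts within a factor of 2 of that length, 48.0% hold at least 1 copy, and 3 hold at least 11, 2 of which are Miat's own. The stretch with the densest copies, 150 bases at chr5:112217310-112217459 on the minus strand, lies in exon 7 of 7 and holds 4 of the 11, in capitals.
Miat repeat stretch: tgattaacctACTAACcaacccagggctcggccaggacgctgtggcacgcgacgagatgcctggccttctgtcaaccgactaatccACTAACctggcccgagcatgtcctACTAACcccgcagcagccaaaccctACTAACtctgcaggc

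A230070E04Rik was low at the wavefront in both libraries. It had 16 and 5 reads in wavefront replicates 1 and 2, against 223 and 217 reads in trailing replicates 1 and 2. In scaled CPM, which are CPM (counts scaled to a common library total) whose totals were rescaled with TMM factors, these are 26.9 and 25.2 at the wavefront, against 407 and 423 in trailing cells. The wavefront mean was 26.1 ± 1.20 and the trailing mean 415 ± 11.3 scaled CPM (SD, n = 2 each). The log2 fold change of wavefront over trailing was -3.98 with a standard error of 0.39 in edgeR's quasi-likelihood count test, and -3.94 ± 0.23 (SE) in limma on log2(scaled CPM + 1). The authors' deposited table, whose fold changes are drawn toward 0, lists -3.03 ± 0.38 (SE).

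**Figure D1:**
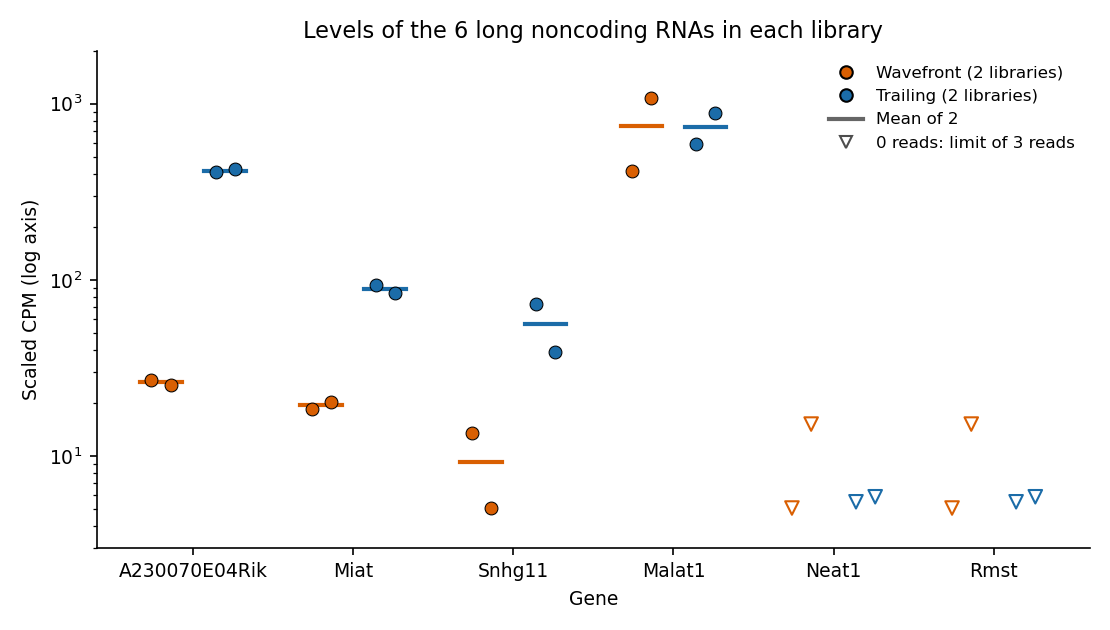
Scaled CPM (log axis) of the 6 long noncoding RNAs in 2 wavefront libraries (orange, left) and 2 trailing libraries (blue, right), with the mean of each pair as a bar. Open triangles mark 0 reads, drawn at the limit of 3 reads. A230070E04Rik, Miat and Snhg11 lie lower in both wavefront libraries, at 5.05 to 26.9 against 39.0 to 423 scaled CPM, and the Malat1 values overlap.

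A230070E04Rik overlaps a neighbouring neurofilament gene in its annotated span. RefSeq places it at chr14:68123752-68131371 on GRCm38, a span of 7620 bases annotated as a long noncoding RNA. It shares 1253 bases with Nefm, a neurofilament gene of neurons, and covers 1095 of the 1107 bases of Nefm's exon 1 in GENCODE M21, which lies on the minus strand. The exons and strand of A230070E04Rik were not examined, so whether its exons cover that exon is not known. The library kit does not keep the strand, so reads in any shared bases cannot be told apart by strand. How many reads of the A230070E04Rik row come from Nefm was not tested. Nefm itself is not analysed here. Nefl, which encodes the neurofilament light chain, ends 34656 bases before the start of A230070E04Rik, at chr14:68083863-68089095.

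Nefl was also the gene whose pattern was most like that of A230070E04Rik. Likeness was the distance between centred log2(scaled CPM + 1) values over the 4 libraries, among 891 genes with a mean level within a factor of 2. The median gene lay at a distance of 4.02, and Nefl at 0.502. Nefl had 17 and 7 reads in wavefront replicates 1 and 2, and 225 and 185 reads in trailing replicates 1 and 2. Reads of A230070E04Rik per read of Nefl were 0.941 (95% exact interval 0.445 to 1.98) and 0.714 (0.179 to 2.61) in the wavefront libraries, and 0.991 (0.820 to 1.20) and 1.17 (0.960 to 1.43) in the trailing ones. The intervals cover counting error only. Nefl was picked for this likeness in the same 4 libraries and for a similar mean level. Steady ratios near 1 therefore follow from the choice, and nothing is read from them.

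The next genes by likeness were Dbh at a distance of 0.764, Gal at 1.54, Dpysl3 at 2.44 and Chrna3 at 2.48. Dbh encodes the enzyme that makes noradrenaline, and it had 13 and 3 reads at the wavefront and 271 and 237 in trailing cells. Gal, the gene of the neuropeptide galanin, had 31 and 7 wavefront reads and 117 and 136 trailing reads. Dpysl3, which encodes a protein of growing axons, had 102 and 30 reads at the wavefront and 247 and 241 in trailing cells. Chrna3, a subunit of the nicotinic acetylcholine receptor of autonomic neurons, had 37 and 11 wavefront reads and 86 and 88 trailing reads. The 5 genes were picked for this pattern, so no test of it is given.

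**Figure D2:**
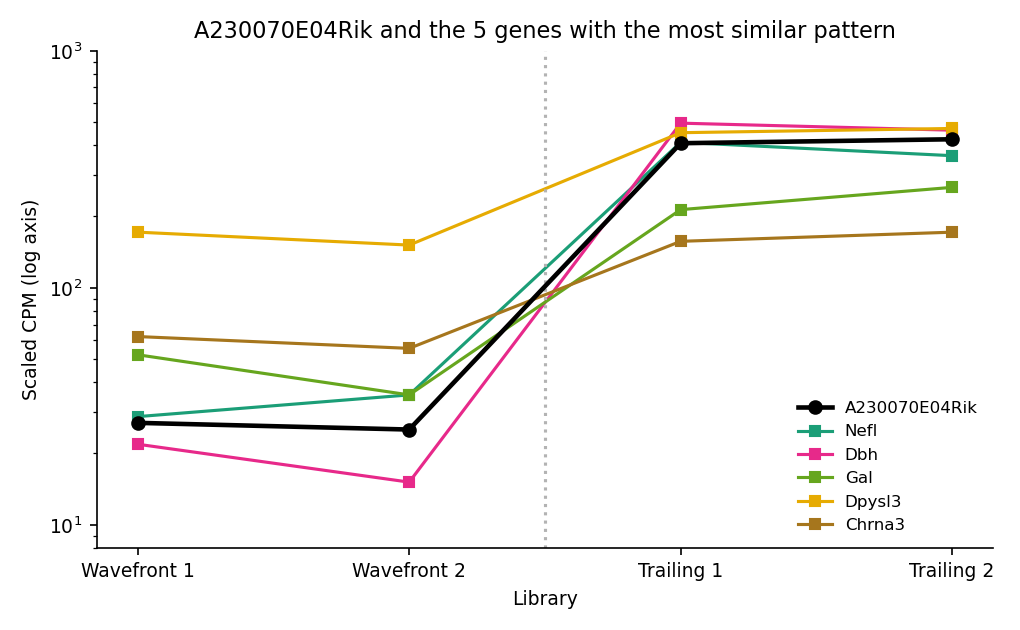
Scaled CPM (log axis) of A230070E04Rik (black) and of the 5 genes with the most similar pattern in wavefront replicates 1 and 2 and trailing replicates 1 and 2; lines join the values of a gene. Nefl runs closest to A230070E04Rik, with 28.6 and 35.3 scaled CPM at the wavefront and 411 and 361 in trailing cells.

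Miat, the neuronal RNA with Sf1-binding repeats, was lower at the wavefront. It had 11 and 4 reads in wavefront replicates 1 and 2, against 51 and 43 reads in trailing replicates 1 and 2. The scaled levels were 18.5 and 20.2 CPM at the wavefront, against 93.1 and 83.9 CPM in trailing cells. The libraries of a location lay close together, at means of 19.4 ± 1.18 and 88.5 ± 6.56 scaled CPM (SD, n = 2 each), and the groups did not overlap. In the count test Miat fell by 2.23 ± 0.41 (SE) on the log2 scale, with an adjusted p of 0.000330 from edgeR. limma gave -2.14 ± 0.28 (SE) with an adjusted p of 0.522, in a test that called 0 of 12519 genes. The count call was lost without wavefront replicate 1 (edgeR adjusted p = 0.122) and in DESeq2 (adjusted p = 0.303).

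Snhg11, the small nucleolar RNA host gene, was also lower at the wavefront, from fewer reads. It had 8 and 1 reads in wavefront replicates 1 and 2, against 40 and 20 reads in trailing replicates 1 and 2. The scaled levels were 13.5 and 5.05 CPM at the wavefront, against 73.1 and 39.0 CPM in trailing cells. The wavefront libraries differed 2.67-fold and the trailing ones 1.87-fold, and both wavefront libraries lay below both trailing ones. Snhg11 spans chr2:158375638-158386145 on the plus strand and is long noncoding in RefSeq but protein coding in GENCODE M21. The log2 fold change was -2.33 ± 0.52 (SE) in the count test, with an edgeR adjusted p of 0.00504, and -2.54 ± 0.61 in limma with an adjusted p of 0.597. Without trailing replicate 1 the count call was lost (edgeR adjusted p = 0.663), and DESeq2 gave Snhg11 no adjusted p.

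Beside A230070E04Rik, the count test thus called 2 of the 3 other members with reads lower at the wavefront, where it called 1.34% of 5759 genes lower and 1.74% in either direction. A230070E04Rik, Miat and Snhg11 had both wavefront libraries below both trailing ones, which held for 20.5% of the genes in that test. The group was drawn up with earlier results of these data in view, so nothing is read from these shares. Miat and Snhg11 also entered the count test through the trailing libraries, where they are high. With no filter on low counts their edgeR adjusted p were 0.000214 and 0.00127. limma called 0% of genes, with 982 of 12519 at an unadjusted p under 0.05. In the authors' deposited table Miat is at -1.34 ± 0.45 (SE) with an unadjusted p of 0.00280, and Snhg11 at -1.18 ± 0.47 with an unadjusted p of 0.0110.

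The annotated promoters of Miat and Snhg11 are shown because these 2 members were lower together. Each RefSeq window on GRCm38 runs from 250 bases before the start to 50 after it. That of Miat is chr5:112228899-112229198 on the minus strand, and that of Snhg11 is chr2:158375463-158375762 on the plus strand. GENCODE M21 puts the starts elsewhere, at 112229395 for Miat and 158375638 for Snhg11. The Miat window thus lies inside the GENCODE span of Miat, and the bases before its GENCODE start were not examined. Capitals mark CAGCTG, an E-box that reads the same on both strands and can be bound by neural factors of the basic helix-loop-helix family.
Miat promoter: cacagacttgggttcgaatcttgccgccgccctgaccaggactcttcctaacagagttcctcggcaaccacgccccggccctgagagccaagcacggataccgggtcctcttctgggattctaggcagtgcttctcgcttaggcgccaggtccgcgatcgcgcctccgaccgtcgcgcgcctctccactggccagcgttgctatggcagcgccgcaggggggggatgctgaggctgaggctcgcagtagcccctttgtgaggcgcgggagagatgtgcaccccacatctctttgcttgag
Snhg11 promoter: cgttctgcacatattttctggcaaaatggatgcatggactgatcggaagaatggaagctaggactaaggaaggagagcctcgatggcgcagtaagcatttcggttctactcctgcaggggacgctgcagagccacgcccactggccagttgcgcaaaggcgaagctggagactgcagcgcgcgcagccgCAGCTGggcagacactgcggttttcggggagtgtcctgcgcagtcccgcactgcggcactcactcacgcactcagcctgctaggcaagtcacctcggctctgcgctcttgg
The Snhg11 window holds 1 copy and the Miat window 0, and 16.3% of 32851 promoter windows hold at least 1. The window of Malat1, whose level did not pass a test, also holds 1. GC content was 64.3% in the Miat window and 60.0% in the Snhg11 window, with a median of 52.7% over all windows.

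Malat1 was the most abundant member and showed no call in either test. It had 245 and 213 reads in wavefront replicates 1 and 2, against 325 and 455 reads in trailing replicates 1 and 2. The scaled levels were 412 and 1075 CPM at the wavefront, against 594 and 888 CPM in trailing cells. Both trailing values lie between the 2 wavefront values. The means were 744 ± 469 and 741 ± 208 scaled CPM (SD, n = 2 each), and the log2 fold change was 0.05 ± 0.39 (SE) in the count test with an edgeR adjusted p of 0.983. The wavefront libraries differed from each other 2.61-fold and the trailing ones 1.50-fold, while the means of the locations were almost equal.

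The direction for Malat1 depended on single libraries. Without wavefront replicate 1 the log2 fold change in the count test was 0.67 (edgeR adjusted p = 0.528), and without wavefront replicate 2 it was -0.87 (edgeR adjusted p = 0.306). Scaled Malat1 was highest in wavefront replicate 2, then trailing replicate 2, trailing replicate 1 and wavefront replicate 1. The share of reads from ribosomal RNA ran in the same order, at 55.5, 26.0, 24.4 and 15.6%, and so did the mitochondrial share of the other reads, at 13.6, 5.49, 4.76 and 2.61%. The part of RNA quality or library make-up in the Malat1 values was not tested. Wavefront replicate 2 was also the shallowest library, with 260217 reads against 452142 to 543070 in the other 3, and the only one with more than 1 read of the embryonic globins Hbb-y (67 reads) and Hba-x (33 reads).

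Neat1 had 0 reads in all 4 libraries, though it lies next to Malat1. The 3 reads that a count of 0 allows correspond to at most 5.05 and 15.1 scaled CPM in wavefront replicates 1 and 2, and 5.48 and 5.85 scaled CPM in trailing replicates 1 and 2. Per kilobase of annotated exon, these limits are 0.243 and 0.729 at the wavefront, and 0.264 and 0.282 in trailing cells. Malat1 stood at 59.1 and 154 scaled CPM per kilobase at the wavefront, and at 85.0 and 127 in trailing cells. In all, 46.3% of the genes in the table are at 0 in every library. By RefSeq biotype the share at 0 is 72.1% of long noncoding genes and 38.5% of protein-coding genes. Whether the authors' counting could assign reads to the Neat1 row was not tested.

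Rmst, which spans chr10:92071037-92165170 on the minus strand, was likewise listed at 0. Its limits per kilobase of exon were 0.680 and 2.04 scaled CPM at the wavefront, and 0.738 and 0.788 in trailing cells. They use the 7423 exon bases of 14 transcripts together. Limits for a single transcript, such as Rmst-210 with 2891 bases, would be higher. The 2 microRNA genes inside its GENCODE span, Mir135a-2 and Mir1251, also had 0 reads. The level of Miat per kilobase was 1.99 and 2.173 scaled CPM at the wavefront, and 10.02 and 9.03 in trailing cells. Snhg11 was at 1.58 and 0.592 scaled CPM per kilobase at the wavefront, and at 8.57 and 4.58 in trailing cells. In trailing cells the order of levels per kilobase was therefore Malat1, then Miat and Snhg11, whose values lie within a factor of 2 of each other in each library, then the 2 genes at 0. A230070E04Rik is left out of this order because its exons are not in GENCODE M21.

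Of the genes nearest to the other 5 members, none that was tested passed the count test. Frmd8 beside Neat1 had 53 and 10 wavefront reads and 29 and 17 trailing reads. Snhg17, the host gene before Snhg11, had 24 and 5 wavefront reads and 3 and 14 trailing reads. In the count test their log2 fold changes were 0.80 and 1.11, with edgeR adjusted p of 0.417 and 0.491. Ralgapb after Snhg11 had too few reads for the test, with 3 and 0 at the wavefront and 4 and 12 in trailing cells. The neighbours of Miat and Rmst with a row, 1700028D13Rik and Gm20757, were at 0. Miat itself spans chr5:112213228-112229395, and GENCODE M21 lists Gm26953 over 13935 of those bases, so reads of that locus could count for either.

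Among messages of the proteins that work with these RNAs, none passed a test. Over 5 lists with 73 genes in all, 60 genes were tested, the median log2 fold change was 0.06, and 0 passed the edgeR count test or limma, with 5 at an unadjusted p under 0.05 in the count test. Over all genes tested the median was 0.01. Of 18 tested paraspeckle protein genes, 13 lay above 0 and 5 below, with a median of 0.12. The 3 with the most reads were Hnrnpk, at a log2 fold change of 0.13 ± 0.40 (SE), Hnrnpa1, at 0.14 ± 0.37, and Nono, a core paraspeckle protein, at 0.28 ± 0.36. All 30 nuclear speckle and splicing genes were tested, 15 on each side of 0, with a median of -0.0044. The splicing factors Srsf3, Ddx39b and Srsf6 were at 0.15 ± 0.35, 0.27 ± 0.34 and 0.11 ± 0.33 (SE).

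Partners of single members were also tested. For Miat, the branch point protein Sf1 was at 0.40 ± 0.31 (SE) on the log2 scale, Srsf1 at 0.23 ± 0.31 and the splicing regulator Qk at 0.10 ± 0.31, and none passed. Celf3, a neuronal splicing factor that binds Miat, had 1 and 2 reads at the wavefront and 9 and 14 reads in trailing cells, too few for the count test. limma tested Celf3 and gave -2.03 ± 0.87 (SE), which did not pass (limma adjusted p = 0.605). Its trailing level over its wavefront level was 5.73 (95% exact counting interval 1.73 to 29.8). That interval pools the reads of each location and leaves out the spread between libraries, and Celf3 was named after its values were seen. For the 3′ end of Malat1, the RNase Z gene Elac2 and Trnt1, which adds the CCA end to tRNAs, were both at 0.33, with SEs of 0.34 and 0.33, and Rpp30, a subunit of RNase P, was at -0.03 ± 0.40. For Rmst, Hnrnpa2b1 was at -0.31 ± 0.40, with 1143 and 352 wavefront reads and 1252 and 1231 trailing reads. Sox2 had 5 and 2 reads at the wavefront and 2 and 8 in trailing cells. Dlx1, a neural fate gene, was at -0.77 ± 0.37 (SE) with an edgeR adjusted p of 0.467. Without wavefront replicate 2, 1 of the 3 tested genes of the Rmst list passed the count test, as higher at the wavefront.

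**Figure D3:**
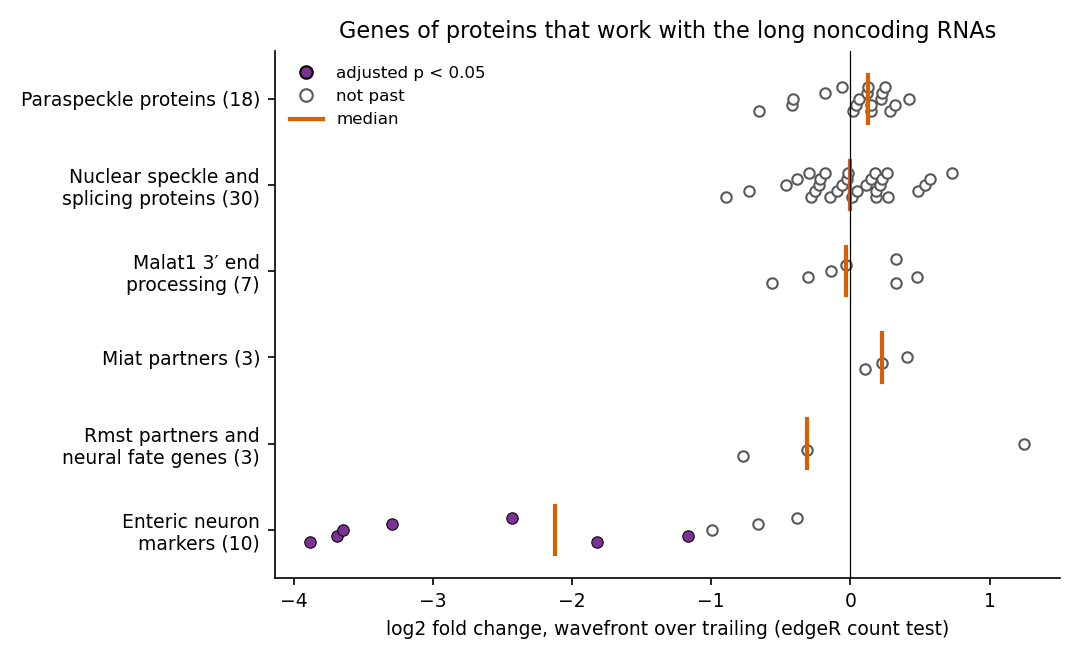
Log2 fold change of wavefront over trailing in the edgeR count test for genes of proteins that work with the long noncoding RNAs, and for enteric neuron markers below them; each point is a gene, the bar is the median and filled points passed an adjusted p of 0.05. In the 5 partner lists 0 genes passed, against 7 of 10 neuron markers and 1.74% of all 5759 genes tested. Stmn2, Prph, Dcx and Elavl3 entered the test through the trailing libraries, where they are high.

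Markers of neurons were lower at the wavefront along with A230070E04Rik, Miat and Snhg11. Of 10 enteric neuron markers tested, 7 were lower at the wavefront and 3 did not pass the edgeR count test, with a median log2 fold change of -2.12. That test called 1.34% of all 5759 genes lower and 0.399% higher. Stmn2, Prph, Dcx and Elavl3 passed its filter through the trailing libraries, where they are high, so nothing is read from the share of markers called. limma tested 11 neuron markers and called 0. The summed level of the 11 neuron markers was 1232 and 833 scaled CPM in wavefront replicates 1 and 2, and 3039 and 3133 in trailing replicates 1 and 2. Stmn2, a microtubule regulator of growing neurons, had 11 and 3 wavefront reads and 86 and 96 trailing reads. Tubb3, neuronal tubulin, had 266 and 62 wavefront reads and 783 and 668 trailing reads. In bulk samples, fewer neurons and less RNA per neuron cannot be told apart, and the part of neuron content in the levels of Miat, Snhg11 and A230070E04Rik was not tested. Ret, the receptor that marks enteric crest cells, had 1413 and 155 wavefront reads and 864 and 545 trailing reads, with a log2 fold change of 0.25 ± 0.41 (SE).

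Of the defining crest markers, Ret and Ednrb had at least 51 reads in every library, and Phox2a had 1 read in all. Of 9 crest markers, 7 were tested and 1 passed in the edgeR count test, lower at the wavefront. The mesenchyme list summed to 264 and 762 scaled CPM at the wavefront, against 146 and 142 in trailing cells. Col3a1, the collagen gene with the most reads of that list, passed as higher at the wavefront (edgeR adjusted p = 0.00380). It did not pass limma (adjusted p = 0.597). Without wavefront replicate 2, 0 of the 2 tested genes of that list passed, and Twist1, another mesenchyme marker, was at 0 in all libraries. Des, an intermediate filament of muscle, was the only tested gene of the smooth muscle list, while Myh11 and Cnn1 were at 0. Des had 73 and 10 wavefront reads and 8 and 6 trailing reads. It passed the count test too, which it entered through the wavefront libraries, where it is high, but not limma (adjusted p = 0.597). No library had more than 6 reads of any epithelial marker. The part of mesenchyme in the members' values was not tested.

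Among all long noncoding RNAs the members were not alone in being lower. By RefSeq biotype 2077 genes of the table are long noncoding, 579 had a read and 29 were tested by counts. Leaving out A230070E04Rik, 4 of 28 passed as lower and 0 as higher, with a median log2 fold change of -0.14. Over all 5759 genes in that test, 1.34% were called lower and 0.399% higher. Those 4 were Miat, Snhg11, Meg3 and Gm16740. Miat, Snhg11 and Gm16740 passed the filter of that test through the trailing libraries, where they are high. The split of 4 to 0 is therefore set in part by the filter, and nothing is read from it. Counting these rows was decided after seeing the data, and 2 of the 4 are members.

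Meg3, an imprinted RNA that also hosts small RNAs, had 26 and 10 reads in wavefront replicates 1 and 2, against 76 and 67 reads in trailing replicates 1 and 2. Its log2 fold change was -1.56 ± 0.34 (SE) with an edgeR adjusted p of 0.00429. Gm16740 had 3 and 1 wavefront reads and 22 and 17 trailing reads, at -2.82 ± 0.67 (SE) and an edgeR adjusted p of 0.00982. Both calls held without wavefront replicate 2 (edgeR adjusted p of 0.00548 and 0.00419). Both were lost without wavefront replicate 1, where the adjusted p was 0.308 for Meg3 and 0.256 for Gm16740. They were lost too without trailing replicate 1, at 0.0816 and 0.608, and without trailing replicate 2, at 0.0715 and 0.180. Of the count alternatives that gave a value, Meg3 passed 5 of 11 and Gm16740 6 of 10. In limma, the main test, neither passed, at an adjusted p of 0.597 for each.

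Of the 55 other long noncoding RNAs named on a list, 43 have a row, 9 were tested and 2 were lower by the edgeR count test, Meg3 and 6330403K07Rik. 6330403K07Rik is protein coding in RefSeq. It had 8 and 8 wavefront reads and 32 and 45 trailing reads. The count test gave -1.79 ± 0.45 (SE) with an edgeR adjusted p of 0.0173, and limma an adjusted p of 0.597. Without wavefront replicate 1 the log2 fold change was -0.71 (edgeR adjusted p = 0.757), without wavefront replicate 2 it was -2.44 (0.000113) and without trailing replicate 2 it was -1.38 (0.670). The call held in 6 of 11 count alternatives and was also lost with the replicate block (edgeR adjusted p = 0.0622), in DESeq2 and in the authors' deposited table (0.9997 in both after adjustment). Of 21 small-RNA host genes, 20 have a row, 6 were tested and Meg3 alone passed as lower. Gas5, the host gene with the most reads, had 73 and 43 wavefront reads and 104 and 123 trailing reads, at a log2 fold change of -0.38 ± 0.33 (SE). The difference between Snhg11 and these host genes was not tested.

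Tug1 had the most reads of any long noncoding RNA, and its libraries differed more within each location than those of Malat1. It had 706 and 49 reads in wavefront replicates 1 and 2, and 431 and 207 in trailing replicates 1 and 2. The scaled levels of Tug1 were 1188 and 247 CPM at the wavefront, and 787 and 404 CPM in trailing cells. Malat1 made up 10.1 and 26.5% of the long noncoding reads at the wavefront, and 12.5 and 18.5% in trailing cells. Tug1 made up 29.2 and 6.10% at the wavefront, and 16.6 and 8.40% in trailing cells. The 4 libraries rank in opposite order for the 2 RNAs, and Tug1 gave 0.28 ± 0.40 (SE) in the count test with an edgeR adjusted p of 0.897. A230070E04Rik took 0.663% (95% exact interval 0.379 to 1.07) and 0.623% (0.202 to 1.45) of long noncoding reads at the wavefront, and 8.59% (7.54 to 9.73) and 8.80% (7.71 to 9.99) in trailing cells. These shares come from the values that selected A230070E04Rik, so they are a description, and the intervals cover counting error only. Long noncoding reads as a whole were 0.534 and 0.698% of the reads without ribosomal RNA at the wavefront, and 0.672 and 0.745% in trailing cells.

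**Figure D4:**
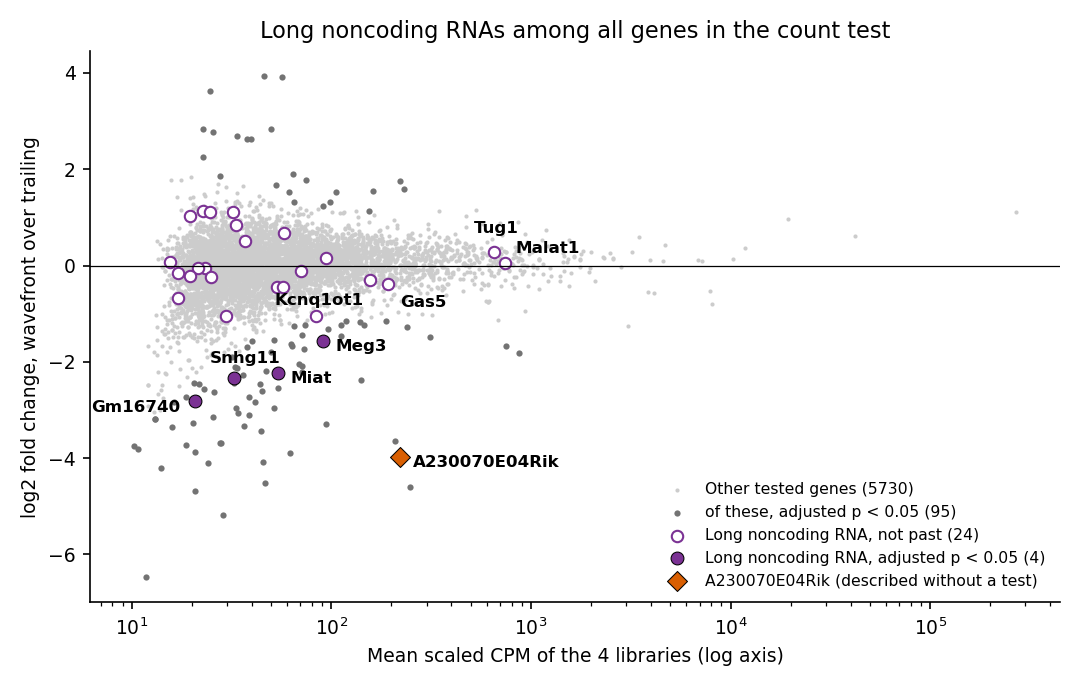
Log2 fold change of wavefront over trailing in the edgeR count test against mean scaled CPM (log axis) for the 5759 genes tested, with 29 long noncoding RNAs in colour. Filled circles are the 4 that passed an adjusted p of 0.05, all below 0, open circles the 24 that did not, and the diamond is A230070E04Rik, at -3.98. Miat, Snhg11 and Gm16740 entered the test through the trailing libraries, where they are high.

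The fold changes of the 4 members with reads were recomputed under 12 other settings of limma and 11 of the count test. A230070E04Rik lay between -4.20 and -3.03 in them. It was selected for this difference in these libraries, so its constant direction adds no support. Miat ranged between -2.39 and -1.34 and passed 1 of 12 limma and 8 of 11 count alternatives, at edgeR, DESeq2 or authors' adjusted p of 0.000155 to 0.948. Snhg11 ranged between -3.27 and -1.18. It passed 0 of 12 limma alternatives, at adjusted p of 0.0788 to 0.865, and 8 of the 10 count alternatives that gave it an adjusted p, at 0.00127 to 0.9997. Malat1 changed sign in 2 limma and 5 count alternatives and passed in none.

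**Figure D5:**
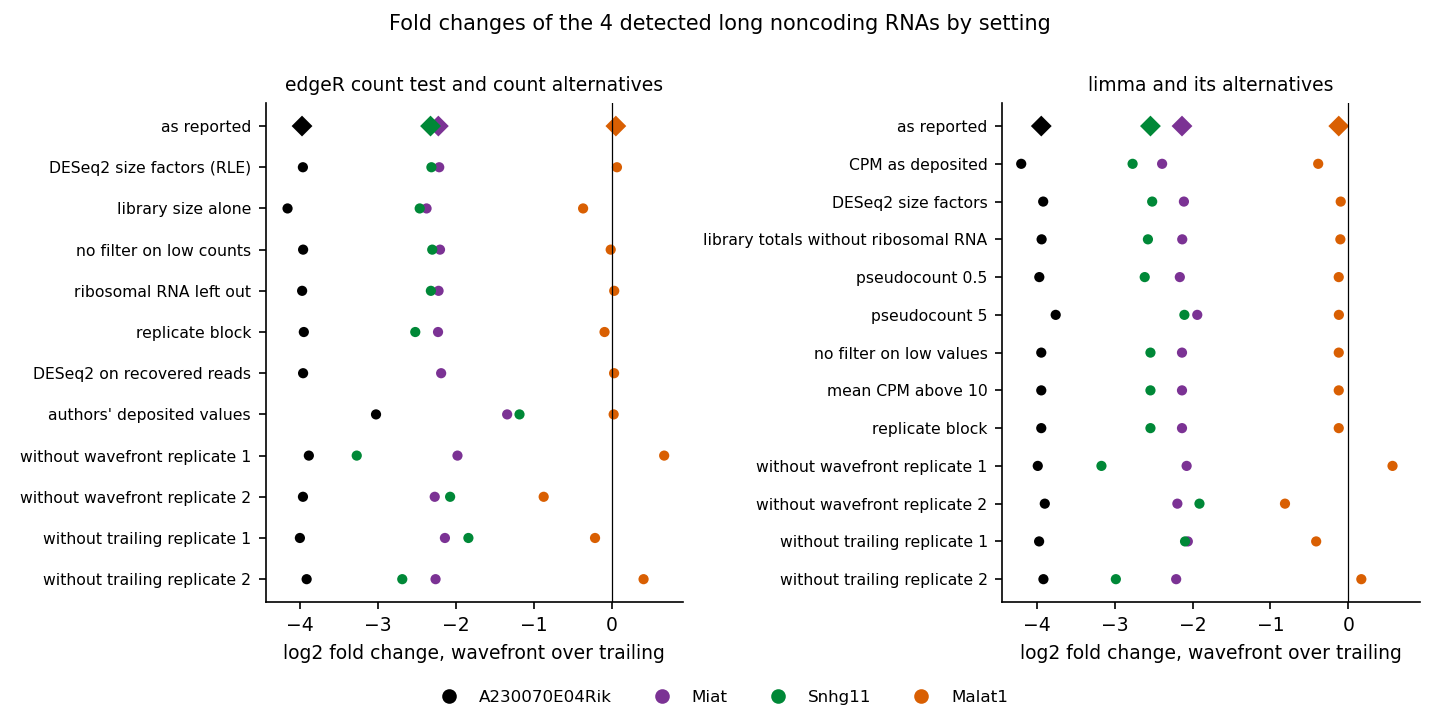
Log2 fold change of wavefront over trailing for A230070E04Rik, Miat, Snhg11 and Malat1 as reported (diamonds) and under each other setting (circles), for the count test (left) and limma (right). A230070E04Rik, Miat and Snhg11 stay below 0 throughout, and Malat1 lies on both sides of it, between -0.87 and 0.67.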

How the data were processed

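RNA from 2 wavefront and 2 trailing samples was compared. The submitters' processing notes name STAR 2.5.2b, featureCounts, DESeq2, bcl2fastq 2.17 and FastQC 0.11.9, with GRCm38 (mm10) as the build. How reads with several hits, or in overlapping genes, were counted is not stated there. Per the labels, libraries were made with the Nextera XT kit, which does not mark strand.

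Per the file headers, the deposited values of each library are CPM. The deposited BaseMean is a signal, the mean of reads over size factors. The deposited fold changes and standard errors are log2 values, the deposited Wald statistic is a score, and the deposited p-value is not adjusted, so it was adjusted here. The CPM were whole multiples of 1 read (100% of values within 0.01 reads), so reads were recovered, giving totals of 543070 and 260217 reads for wavefront replicates 1 and 2 and 517000 and 452142 for trailing replicates 1 and 2. One read is worth 1.84, 3.84, 1.93 and 2.21 CPM in that order. The table has 27606 rows, and 428 repeated identifiers were kept once.

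The main test was limma 3.58.1 (trend on the mean) of log2(scaled CPM + 1) for genes with a mean deposited CPM above 1, scaled by TMM factors of 1.09, 0.761, 1.06 and 1.13. Beside it, edgeR 4.0.16 tested the recovered reads by its quasi-likelihood F test (TMM, filterByExpr with 10 reads). DESeq2 1.42.0 under R 4.3.3 was an alternative, and other scalings, filters, pseudocounts, a replicate block and leaving out each library were tried. Location was the only term, p-values are two-sided and Benjamini-Hochberg adjusted over all genes, and the threshold was 0.05. Both tests were tested on simulated data. A limit for 0 reads is 3 reads, and intervals cover counting error only.

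The members and lists were chosen with earlier results of these data known. The text names all members; from each partner list the genes past a test or, if none, up to 3 with the most reads; the nearest annotated genes; and the 5 genes most like A230070E04Rik. Celf3, Sox2, Dlx1, Gm16740, the markers, the other top long noncoding RNAs and globins were named after their values were seen. Some genes of these lists are counted but not reported singly here.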

Additional observations from a re-analysis of the deposited data

How the results depend on the processing

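The number of genes past the threshold in limma was 0 as reported, 2 with DESeq2's size factors, 4 with library totals without ribosomal RNA, 2 with a pseudocount of 5, 3 with no filter, 35 with mean CPM above 10 and 21 with the replicate block, and 0 without any single library. The count test called 100 genes, 15 with DESeq2 and 13 by the authors' deposited p-values, and 41 to 143 when each library was left out in turn (76 and 143 without wavefront replicates 1 and 2, 46 and 41 without trailing replicates 1 and 2). The replicate block gave 78. Replicate numbers were not shown to pair the samples, since the deviations of same-numbered libraries had a correlation of 0.06 across 5759 genes.

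A230070E04Rik was at -4.20 in limma on CPM as deposited and at -3.76 with a pseudocount of 5; in the count test it was at -4.16 with library size alone and at -3.03 in the authors' deposited table, and -4.00 to -3.89 without single libraries (-3.99 to -3.90 in limma). Malat1 changed sign in limma without a library (range -0.81 to 0.57). In the count test it was at -0.37 with library size alone, -0.014 with no filter, -0.093 with the replicate block, and -0.87 to 0.67 without single libraries. Miat passed limma with mean CPM above 10, at -2.14 (adjusted p = 0.0203). Its count call was lost in DESeq2 (-2.19) and in the authors' deposited table (-1.34), and its range without single libraries was -2.27 to -1.98 (-2.21 to -2.06 in limma). Snhg11 lost its count call in the authors' deposited table (-1.18), and its range was -3.27 to -1.84 (-3.17 to -1.91 in limma). For Malat1, Miat and Snhg11 the cause was not tested.

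Over all genes, the median log2 fold change was -0.35 with deposited CPM in limma and -0.18 in the count test with library size alone, against -0.11 and 0.01 as reported, so the members are best read relative to it. Without wavefront replicate 2, a setting added after seeing the data, 0 of 21 paraspeckle, 0 of 30 speckle, 1 of 3 Rmst-list, 6 of 11 neuron and 0 of 2 mesenchyme genes passed the count test, and 4 of 49 long noncoding RNAs other than A230070E04Rik did. With at most 11 reads of Miat and 8 of Snhg11 in a wavefront library, depth limits both values.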
